A study of Mus musculus with 6 samples.

Results

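The 8 troponin subunit genes of striated muscle were examined in mouse myoblasts with reduced PRDM2: Tnnc1 and Tnnc2 (troponin C), Tnni1, Tnni2 and Tnni3 (troponin I), and Tnnt1, Tnnt2 and Tnnt3 (troponin T). Every probe set whose annotation carries exactly 1 of these symbols was taken, which gave 12 of the 34945 probe sets with a single gene symbol. Tnni2 and Tnnt2 each had 3 probe sets and the other 6 genes had 1.

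RNA came from C2C12 cells, an established mouse myoblast line that can fuse into myotubes, and was hybridized to 6 Affymetrix expression arrays. The GFP shRNA control group (GFP S48, 3 arrays) is a stable C2C12 pool with an shRNA against GFP, and the PRDM2 knockdown group (PRDM2 KD S48, 3 arrays) is a stable pool with an shRNA against PRDM2, a chromatin protein of the PR domain family. All cells, controls included, carried an shRNA and were held for 48 hours in methylcellulose suspension with 20% serum to bring them to G0. The labels call the arrays of a group biological replicates but do not say that they came from separate transfections, so p-values measure the spread between arrays of these pools.

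Troponin is the calcium switch of the thin filament, the actin-based part of the contractile lattice of striated muscle. Troponin C binds calcium, troponin I holds the filament in the relaxed state, and troponin T anchors the complex to tropomyosin. Fast skeletal fibres use Tnnc2, Tnni2 and Tnnt3, slow fibres use Tnnc1, Tnni1 and Tnnt1, and the heart uses Tnnc1, Tnni3 and Tnnt2. Embryonic skeletal muscle and newly formed myotubes also make the cardiac form of troponin T, and troponin genes are classic markers of the step from dividing myoblast to differentiated muscle cell.

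The values below are deposited intensities (linear, 1 for each probe set on each array). Differences are on the log2(intensity + 16) scale after quantile normalization, so changes of dim probe sets are understated. Median intensity was 10.6 to 12.1 on the 6 arrays, and 55.1% to 58.2% of probe sets on an array lay below 16. No detection calls were used here, so a value below 16 is described only as dim. On control array 3 the ratio of the 5' to the 3' Gapdh control probe set was 0.0992, against 0.704 to 1.14 on the others. The Dap 3' spike, a bacterial RNA added during labelling, read 39.9 and 38.8 on control array 3 and knockdown array 3, against 126 to 254 on the other 4 arrays, which are called the higher spike arrays below. The best-measured probe set of Prdm2 itself, 1429251_at, was at 86.2, 73.6 and 47.1 in the 3 control arrays and at 58.0, 51.5 and 29.0 in the 3 knockdown arrays. The groups overlapped (log2 difference -0.51, SE 0.217, limma adjusted p = 0.400). Another, 1453068_at, averaged 73.0 in the control and 37.5 in the knockdown (-0.75, SE 0.331, limma adjusted p = 0.433). The third, 1444123_at, was dim, at 6.51 and 7.84 (0.10, limma adjusted p = 0.766). In both of these the groups overlapped as well. With limma 0 of 3 Prdm2 probe sets passed, and 0 of 3 had an unadjusted p under 0.05, so the arrays do not by themselves verify the label.

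Of the myoblast markers, Des, which encodes desmin, averaged 977 in the control and 789 in the knockdown, and Myod1 165 and 243. Pax7, the muscle stem cell factor, was dim in both, at 2.04 and 3.46. None of these passed (limma adjusted p = 0.549, 0.609 and 0.753), and they fall outside the naming rule given below. Of 9 measured myoblast markers 1 was higher past the threshold and 1 lower, where 2.39% and 1.80% of 18193 genes were. These were Vcam1, a cell adhesion molecule (log2 difference 2.36, limma adjusted p = 0.00137), and Myf5, an early myogenic factor (-1.29, limma adjusted p = 0.0192).

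Troponin transcripts of all 3 kinds of subunit were higher in the knockdown cells. Of the 12 probe sets, 10 rose, 0 fell and 2 did not pass the test, where a call means a limma adjusted p under 0.05 over all 34945 probe sets and 1.81% of those were called higher. At least 1 probe set rose for 7 of the 8 genes, all but Tnni3. Among the 10 that rose, log2 differences ran from 1.36 to 4.61. The median over all 12 was 3.34, against -0.00035 over all probe sets. The 3 knockdown intensities lay above the 3 control intensities at all 12 probe sets, as they did at 10.6% of all probe sets. By size of difference, 8 of the 12 stood among the 100 largest rises, with Tnnc2 at rank 2 and Tnni2 at rank 7. In the higher spike arrays the 10 differences ran from 1.24 to 4.83, and between the other 2 arrays, 1 per group, from 1.55 to 4.16. Ordinary statistics, with no variance shared between probe sets, called 4 of the 12. In bulk RNA, more cells making a transcript and more transcript per cell cannot be told apart.

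**Figure D1:**
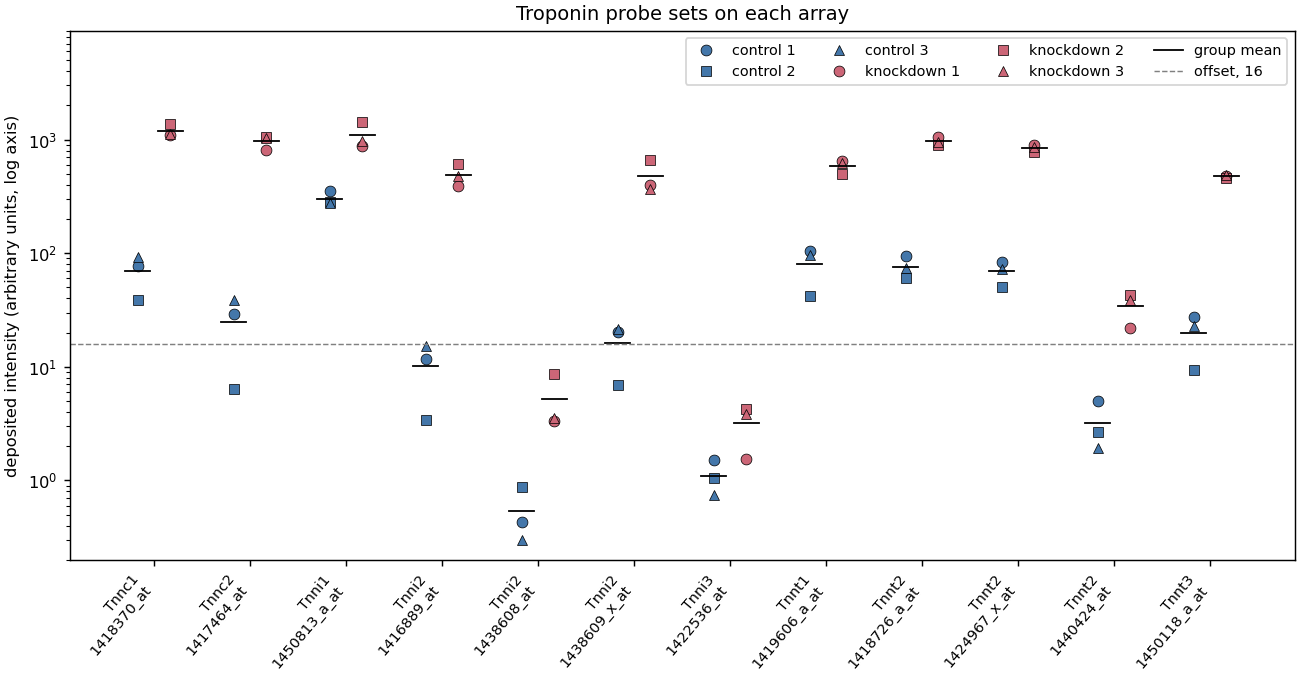
Deposited intensity (log axis) of the 12 troponin probe sets on the 6 arrays, with control arrays in blue, knockdown arrays in red, black bars for group means and a dashed line at the offset of 16. Every knockdown point lies above every control point of the same probe set, and Tnni3 and the dim probe set 1438608_at of Tnni2 lie below 16 on all arrays.

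Both troponin C genes rose. Tnnc2, the fast skeletal calcium sensor, read 29.4, 6.43 and 38.7 in the control (arrays 1, 2 and 3, the order used throughout) and 813, 1064 and 1037 in the knockdown. The controls were dim to weak and spread widely, with control array 2 lowest, while the knockdown arrays lay close together and far above them. The mean went from 24.9 ± 16.6 to 971 ± 138 (SD, n = 3 each), a log2 difference of 4.61 (SE 0.372, limma adjusted p = 0.00263). Tnnc1, shared by slow fibres and heart, read 77.9, 38.6 and 92.4 in the control and 1105, 1364 and 1126 in the knockdown. Control array 2 was again lowest, and the lowest knockdown array was far above the highest control. Tnnc1 rose by 3.82 on the log2 scale (SE 0.320, limma adjusted p = 0.00297). Without limma's moderation of the variances the ordinary adjusted p was 0.0664 for Tnnc2 and 0.0696 for Tnnc1.

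The troponin I genes differed most from one another. Tnni2, the fast inhibitory subunit, read 11.8, 3.40 and 15.4 in the control and 387, 612 and 480 in the knockdown at its representing probe set, 1416889_at, the one with the highest mean. All controls were below 16, so they bound the starting level poorly, whereas the knockdown arrays were well clear of it. The mean rose from 10.2 ± 6.14 to 493 ± 113 (SD, n = 3 each), a log2 difference of 4.23 (SE 0.242, limma adjusted p = 0.000989). With an offset of 1 in place of 16 this difference was 5.56, and with 64 it was 2.85.

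Tnni1, the slow inhibitory subunit, read 350, 281 and 278 in the control and 882, 1417 and 964 in the knockdown. Unlike Tnni2, its control signal was already far above the offset on every array, and the groups did not overlap. Its mean rose from 303 ± 40.4 to 1088 ± 288 (SD, n = 3 each), a log2 difference of 1.70 (SE 0.196, limma adjusted p = 0.00931). With the higher spike arrays alone the adjusted p was 0.129, and with ordinary statistics it was 0.106.

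Tnni3, the cardiac inhibitory subunit, read 1.51, 1.05 and 0.750 in the control and 1.55, 4.28 and 3.85 in the knockdown. All 6 values were dim, with knockdown array 1 scarcely above control array 1. The log2 difference of 0.17 did not pass (SE 0.0924, limma adjusted p = 0.572), and its 95% interval ran from -0.06 to 0.39. With an offset of 1 the difference was 0.95 and again did not pass.

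Of the troponin T genes, Tnnt3, the fast form, read 27.2, 9.33 and 22.8 in the control and 481, 460 and 485 in the knockdown. Its knockdown values were nearly equal, and control array 2 was the lowest of all. The mean rose from 19.8 ± 9.31 to 475 ± 13.1 (SD, n = 3 each), a log2 difference of 3.75 (SE 0.223, limma adjusted p = 0.000989). Tnnt2, the cardiac and embryonic form, read 94.3, 61.1 and 73.5 in the control and 1052, 892 and 949 in the knockdown at 1418726_a_at. Both groups were tight here, and Tnnt2 rose by 3.36 (SE 0.169, limma adjusted p = 0.000809).

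Tnnt1, the slow form of troponin T, read 105, 41.6 and 95.7 in the control and 649, 494 and 618 in the knockdown. The groups did not overlap, and control array 2 was again the lowest. Its log2 difference of 2.64 had an SE of 0.340 and a limma adjusted p of 0.0139, the highest among the 10 probe sets that rose. The adjusted p was 0.0757, 0.0562 and 0.0688 without knockdown array 1, 2 or 3, 0.120 in the higher spike arrays alone and 0.136 with ordinary statistics. The difference itself stayed between 2.13 and 2.88 over all alternatives.

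**Figure D2:**
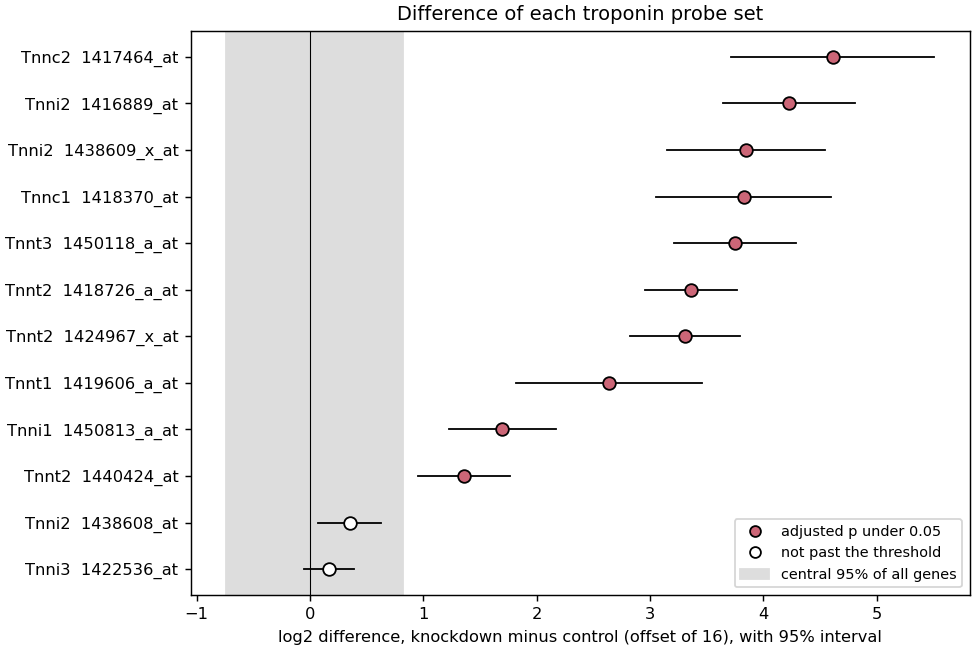
Log2 difference between knockdown and control for each troponin probe set with its 95% interval from limma, filled where the adjusted p was under 0.05, over a grey band for the central 95% of all genes. The 10 filled points run from 1.36 to 4.61, outside the band, which spans -0.74 to 0.82, and the 2 open points lie inside it.

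Probe sets of 1 gene did not always give the same size of change. Those marked x_at contain probes that can match other transcripts, and those marked a_at match several transcripts of 1 gene. For Tnni2, 1438609_x_at went from 16.3 ± 8.09 to 476 ± 157 (log2 difference 3.85, limma adjusted p = 0.00203), near the value of the representing probe set. With ordinary statistics its adjusted p was 0.0613. The third, 1438608_at, read 0.431, 0.884 and 0.299 in the control and 3.36, 8.65 and 3.58 in the knockdown. It was dim throughout and its log2 difference of 0.35 did not pass (limma adjusted p = 0.256), although with an offset of 1 it did (1.93, limma adjusted p = 0.0261). For Tnnt2, 1424967_x_at gave 3.31 (limma adjusted p = 0.000989), while 1440424_at read 4.97, 2.64 and 1.95 in the control and 21.8, 42.5 and 38.7 in the knockdown. This dimmer probe set rose by 1.36 (limma adjusted p = 0.0121). Its adjusted p was 0.0509 and 0.0589 without knockdown array 2 or 3, 0.160 in the higher spike arrays and 0.113 with ordinary statistics. Averaging the probe sets of each gene left 7 of 8 troponin genes called.

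Within each subunit family the fast gene had the largest log2 change at the offset of 16, although Tnnt3 against Tnnt2 turned with an offset of 64. On each array the log2 value of 1 gene of a pair was subtracted from that of its paralogue, with the representing probe sets. This per-array difference was then compared between the groups, for 7 pairs. The change of Tnnc2 exceeded that of Tnnc1 by 0.78 (SE 0.109), that of Tnni2 exceeded that of Tnni1 by 2.53 (SE 0.147), and that of Tnnt3 exceeded that of Tnnt1 by 1.11 (SE 0.178). Tnnt3 exceeded Tnnt2 by 0.39 (SE 0.0968), and Tnnt1 stood below Tnnt2, with a difference of -0.73 (SE 0.238). Against Tnni3, Tnni2 changed by 4.06 more (SE 0.258) and Tnni1 by 1.53 more (SE 0.182). In each of the 7 pairs the per-array log2 differences of the groups did not overlap. The pairs share genes and are not independent, and no share over other gene pairs is given here. Each pair gave an exact two-sided permutation p = 0.1 (0.1 after adjustment over the 7 pairs). This is the smallest that 3 arrays against 3 allow, so none can pass.

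These sizes depend on the offset, since the fast genes start from dimmer control signals. With an offset of 1 the 3 fast minus slow differences were 1.33 for troponin C, 3.82 for troponin I and 1.69 for troponin T, and with 64 they were 0.30, 1.29 and 0.52. The direction of Tnnt3 against Tnnt2 turned, at 0.97 with an offset of 1 and -0.18 with 64. With the mean over the probe sets of each gene, Tnni2 exceeded Tnni1 by 1.11 and Tnni3 by 2.64, Tnnt3 exceeded Tnnt2 by 1.07, and Tnnt1 and Tnnt2 differed by -0.04. Tnni1 exceeded Tnni3 by 0.79 with an offset of 1.

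**Figure D3:**
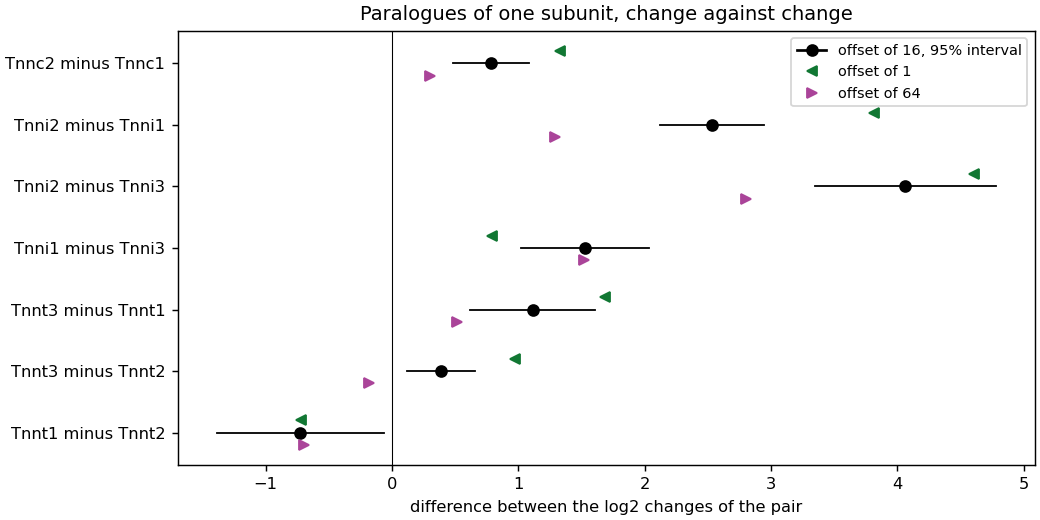
Difference between the log2 changes of 2 troponin genes of 1 subunit family, for 7 pairs, with black points and 95% intervals at the offset of 16 and triangles at offsets of 1 and 64. Only Tnnt3 minus Tnnt2 has its triangles on both sides of 0, at 0.97 and -0.18.

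Troponin I and T genes lie in 3 neighbouring I and T pairs in the mouse genome (RefSeq, GRCm38.p6), each combining 1 gene of each kind. Tnni2 and Tnnt3 on chromosome 7, with Lsp1 and Prr33 between them, are both fast forms and rose by 4.23 and 3.75. Tnnt1 and Tnni3, also on chromosome 7 and with 0 genes between them, differed by 2.64 and 0.17. Tnni1 and Tnnt2 on chromosome 1, separated by Lad1, rose by 1.70 and 3.36. So Tnni3, the dim cardiac gene that did not pass, is the direct neighbour of a gene that rose.

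RefSeq start sites were held for 6 of the 8 troponin genes, 8 sites in all, and the 250 bases before a site were read for each. The 2 genes without one were the fast forms Tnni2 and Tnnt3, which rose by 4.23 and 3.75, so the matches below leave them out. Sequences upstream of 1 start site per gene are shown because the 6 genes, apart from Tnni3, rose together. They are written 5' to 3' on the gene's strand in GRCm38.p6, in lower case, with matches on either strand in capitals. The motifs searched were the myogenic E-box (CAGCTG or CACCTG, bound by MyoD and myogenin), the M-CAT element (CATTCC, bound by TEAD factors), TATAAA, the MEF2 site and the CArG box of serum response factor.
Tnnc2, chr2:164779735-164779984, minus strand: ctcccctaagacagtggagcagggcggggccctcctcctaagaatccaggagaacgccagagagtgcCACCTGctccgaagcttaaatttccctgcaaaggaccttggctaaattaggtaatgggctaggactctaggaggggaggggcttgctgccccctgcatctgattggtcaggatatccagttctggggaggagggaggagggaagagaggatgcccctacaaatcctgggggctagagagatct
Tnnc1, chr14:31208062-31208311, plus strand: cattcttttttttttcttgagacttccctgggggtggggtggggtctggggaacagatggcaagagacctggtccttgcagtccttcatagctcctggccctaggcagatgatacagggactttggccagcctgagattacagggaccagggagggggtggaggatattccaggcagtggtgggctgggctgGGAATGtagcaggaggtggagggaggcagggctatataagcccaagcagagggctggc
Tnni1, chr1:135799171-135799420, plus strand: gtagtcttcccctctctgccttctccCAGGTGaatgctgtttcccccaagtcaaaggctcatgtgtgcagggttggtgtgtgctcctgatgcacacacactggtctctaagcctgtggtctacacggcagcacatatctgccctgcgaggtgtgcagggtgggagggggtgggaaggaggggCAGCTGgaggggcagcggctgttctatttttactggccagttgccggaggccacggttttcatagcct
Tnni3, chr7:4522529-4522778, minus strand: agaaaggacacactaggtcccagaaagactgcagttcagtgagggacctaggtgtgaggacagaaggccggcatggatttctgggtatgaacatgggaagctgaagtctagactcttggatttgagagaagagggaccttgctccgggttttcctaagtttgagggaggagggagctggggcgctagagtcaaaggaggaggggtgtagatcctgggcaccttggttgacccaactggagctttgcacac
Tnnt1, chr7:4515976-4516225, minus strand: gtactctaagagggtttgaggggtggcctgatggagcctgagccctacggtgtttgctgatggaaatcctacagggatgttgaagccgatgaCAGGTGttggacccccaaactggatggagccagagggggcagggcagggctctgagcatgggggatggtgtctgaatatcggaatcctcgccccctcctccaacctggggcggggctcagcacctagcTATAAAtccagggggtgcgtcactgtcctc
Tnnt2, chr1:135836084-135836333, plus strand: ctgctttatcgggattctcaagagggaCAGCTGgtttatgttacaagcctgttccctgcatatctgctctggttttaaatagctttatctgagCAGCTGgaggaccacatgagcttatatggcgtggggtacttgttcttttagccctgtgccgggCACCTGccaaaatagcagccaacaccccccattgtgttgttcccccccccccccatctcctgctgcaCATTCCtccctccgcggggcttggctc

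An E-box of this kind was found at 5 of the 8 sites, among them 2 overlapping windows of Tnni1, against 27.7% of 32851 promoter windows of the same length. In the Tnnt2 window shown there were 3, at 223, 157 and 94 bases before the start, and in the Tnni1 window shown 2. The windows of Tnnc2 and Tnnt1 held 1 each, while those of Tnnc1 and Tnni3 held 0. Of the windows not shown, that of the second Tnni1 site held 1, and that of the second Tnnt2 site held 0 matches of any motif. An M-CAT element was found at 2 sites, those of Tnnt2, 27 bases before the start, and Tnnc1, 58 bases before it on the other strand, against 12.6% of all windows. The letters TATAAA occurred only in the Tnnt1 window, against 12.4% of all. Neither a MEF2 site nor a CArG box matched at any of the 8 sites, against 2.92% and 1.47% of all. No match overlapped another motif's match in these windows. The matches are of letters only.

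Within the control group most troponin probe sets moved together. On the deposited scale control array 2 was the lowest control for 8 of the 12, against 32.8% of all probe sets and 25.4% of the 631 called higher. After normalization it was lowest for 9. At the 8 probe sets with a control mean of at least 16, control array 2 stood from 0.19 to 0.83 below the control mean on the log2 scale. At the 4 dimmer ones its deviation ran from -0.42 to 0.03. This array had the highest Gapdh 5' to 3' ratio, 1.14. Whether that has a part in the low values was not tested. Without this array, 10 of the 12 probe sets were called. Other muscle genes named below were also lowest on control array 2. Among them were Myl1 (92.8, 32.6 and 46.8), Mylpf (117, 37.6 and 120) and Acta1 (98.9, 53.3 and 89.8). Neb and Ryr1, however, were lowest on control array 3, though both were dim there, with control means of 2.86 and 5.85. The low values on control array 2 are thus not particular to troponins.

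Within the knockdown group the troponin probe sets did not all move together. On knockdown array 2 all 7 troponin C and I probe sets had their highest deposited value among knockdown arrays, and 4 of the 5 troponin T probe sets had their lowest. After normalization these counts were 6 of 7 and 4 of 5. Over all probe sets, 32.9% were highest and 35.1% lowest on that array. The exception among troponin T was 1440424_at of Tnnt2, which read highest there. Tnni2 and Tnnt2 supply 3 probe sets each to these counts, and Tnnt3 was lowest by little, at 460 against 481 and 485. Other muscle genes went both ways on this array. Casq2 (367, 541 and 396) and Mylpf (1755, 2343 and 1960) were highest there, and Acta1 (2142, 2024 and 2618) and Myh7 (370, 283 and 337) lowest. The split is thus not shown to follow the troponin subunits. With 3 arrays this is a description and was not tested.

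**Figure D4:**
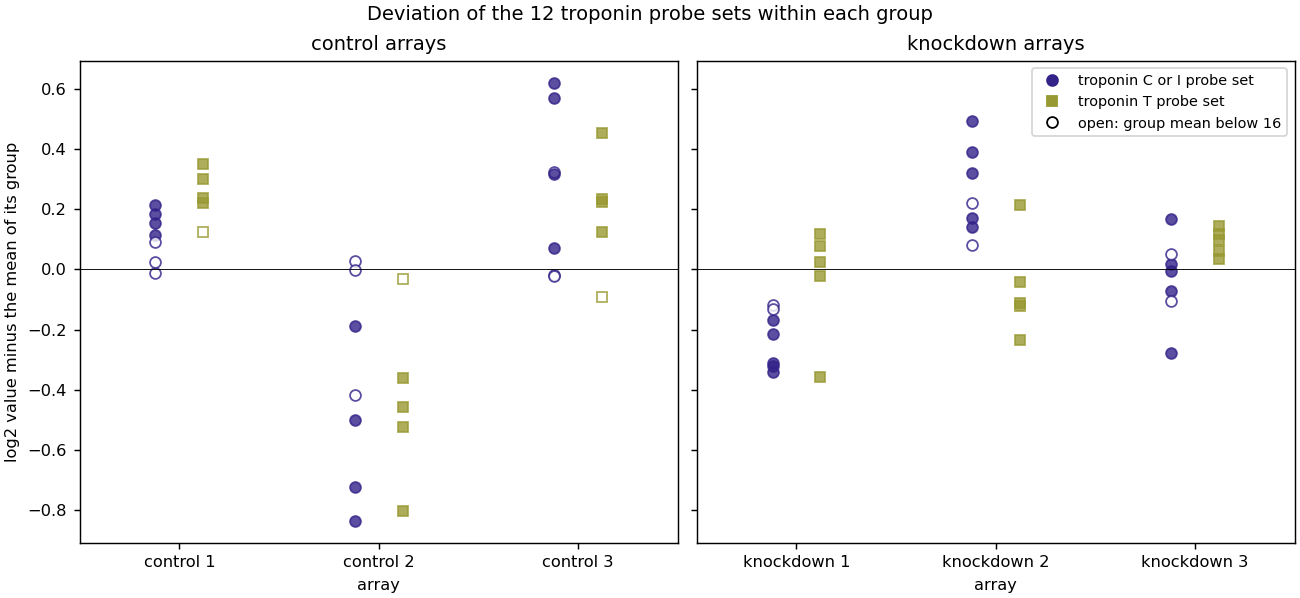
Normalized log2 value minus its group mean for the 12 troponin probe sets, on the control arrays (left) and knockdown arrays (right), with circles for troponin C or I squares for troponin T and open symbols where that group's mean is below 16. On control array 2 the 8 filled symbols lie 0.19 to 0.83 below 0, and on knockdown array 2 the circles lie above 0 while 4 of 5 squares lie below it.

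Other genes of the thin filament went both ways. Of 15 measured partners, 6 rose, 1 fell and 8 did not pass, with a median log2 difference of 1.09, where 2.39% of 18193 genes were called higher, 1.80% lower, and the median gene stood at -0.0036. Here each gene is given by its probe set of highest mean. For comparison, the median over the 8 troponin genes taken the same way was 3.56. The skeletal and cardiac actins Acta1 and Actc1 rose by 4.51 and 3.93 (limma adjusted p = 0.000989 and 0.00170). Nebulin, Neb, which runs along the thin filament, rose by 2.63, and Klhl41, a nebulin-associated protein, by 2.57 (limma adjusted p = 0.00338 and 0.0247).

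Tropomyosins, to which troponin T binds, and the member that fell were named after their values were seen. Tpm1, Tpm2 and Tpm3 differed by 0.63, -0.07 and -0.42, and none passed (limma adjusted p = 0.398, 0.933 and 0.203). Which isoforms of these genes the probe sets read is not known from the sources used here. The control mean of Tpm2 was 1610 ± 121 and its knockdown mean 1597 ± 282 (SD, n = 3 each). Tmod1, which caps thin filament ends, fell by 1.26 (limma adjusted p = 0.0220).

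Genes of calcium release and uptake, which supply the ion that troponin C binds, rose in most cases. Of 20 measured, 13 rose, 0 fell and 7 did not pass, with a median of 1.16. Of all 18193 genes, 2.39% were called higher and 1.80% lower. The calcium-binding proteins of the calcium store, Casq2 and Casq1, rose by 3.85 and 3.18, the calcium pump Atp2a1 by 3.53 and the release channel Ryr1 by 2.51 (limma adjusted p = 0.000989, 0.000499, 0.000914 and 0.000566). The count was 8 without control array 1 and 7 without knockdown array 1.

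Fibre type lists, which share some genes with the calcium list, were mixed. The shares over all genes were again 2.39% called higher and 1.80% lower. Of 11 fast fibre genes 5 rose and 0 fell, with a median of 1.01. The fast myosin light chains Myl1 and Mylpf rose by 4.47 and 4.29 and the fast myosin heavy chain Myh1 by 3.44 (limma adjusted p = 0.00151, 0.00552 and 0.000989). Of 10 slow fibre genes 3 rose and 0 fell, with a median of 0.11. They were the slow myosin heavy chain Myh7 (3.97), Casq2 and the Z-disc gene Myoz2 (2.79), with limma adjusted p of 0.000298, 0.000989 and 0.00222. In each of the 2 lists, 4 genes had both group means below 16, where the offset compresses differences, which lowers the medians' weight. The difference between the lists was not tested.

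Since Tnnt2 is also the troponin T of the heart, markers of heart muscle cells were looked at beside it. Of 10 measured of 11, 0 passed in either direction with limma, 1 had an unadjusted p under 0.05 (Nkx2-5, lower), and the median difference was -0.0069. Among all genes, 2.39% were called higher and 1.80% lower. Their summed intensity was 158 to 189 on control arrays and 157 to 186 on knockdown arrays. No marker was listed at 0, but 7 of the 10 had both group means below 16. The brightest were Mybpc3, cardiac myosin-binding protein C, at 50.5 and 58.8, and Nkx2-5, a cardiac transcription factor, at 56.8 and 44.9 in control and knockdown.

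Markers of other cell types were checked in the same way, beside the same shares of 2.39% called higher and 1.80% lower over all genes. Of 7 smooth muscle markers 2 rose, Tagln by 2.27 and Lmod1 by 1.17. Acta2 was higher by 1.07, with means of 1118 and 2295, and Smtn was lower, at -0.90, with means of 436 and 242, and neither passed (limma adjusted p = 0.151 and 0.118). Both were named after their values were seen. The list's summed intensity was 1302 to 2054 on control arrays and 2681 to 3012 on knockdown arrays. Of 7 fibroblast markers 1 rose, Col1a1 by 1.88, with sums of 4777 to 7635 and 6492 to 6848 in control and knockdown. With limma, 0 adipocyte (4 measured), endothelial (5) or myeloid (5) markers passed, and 1 of them, the myeloid receptor gene Csf1r, was lower at an unadjusted p under 0.05. The part of the smooth muscle genes in the troponin result was not tested.

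Transcription factors known to act on troponin and other muscle genes were mixed. Of 16 measured, 3 rose, 1 fell and 12 did not pass, where 2.39% of all genes were called higher and 1.80% lower, and the list's median was 0.18. Myog, which encodes myogenin, went from 25.5 ± 16.2 to 557 ± 179 (SD, n = 3 each) and rose by 3.78 (limma adjusted p = 0.00372), beside 3.75 for Tnnt3 and 3.82 for Tnnc1. Mef2c rose by 2.45 and Tead4 by 0.47 (limma adjusted p = 0.00174 and 0.0380), though Tead4 was dim, with means of 3.98 and 11.5. Myf5 fell by 1.29. The count of 4 was 2 without control array 1, control array 3 or knockdown array 1.

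**Figure D5:**
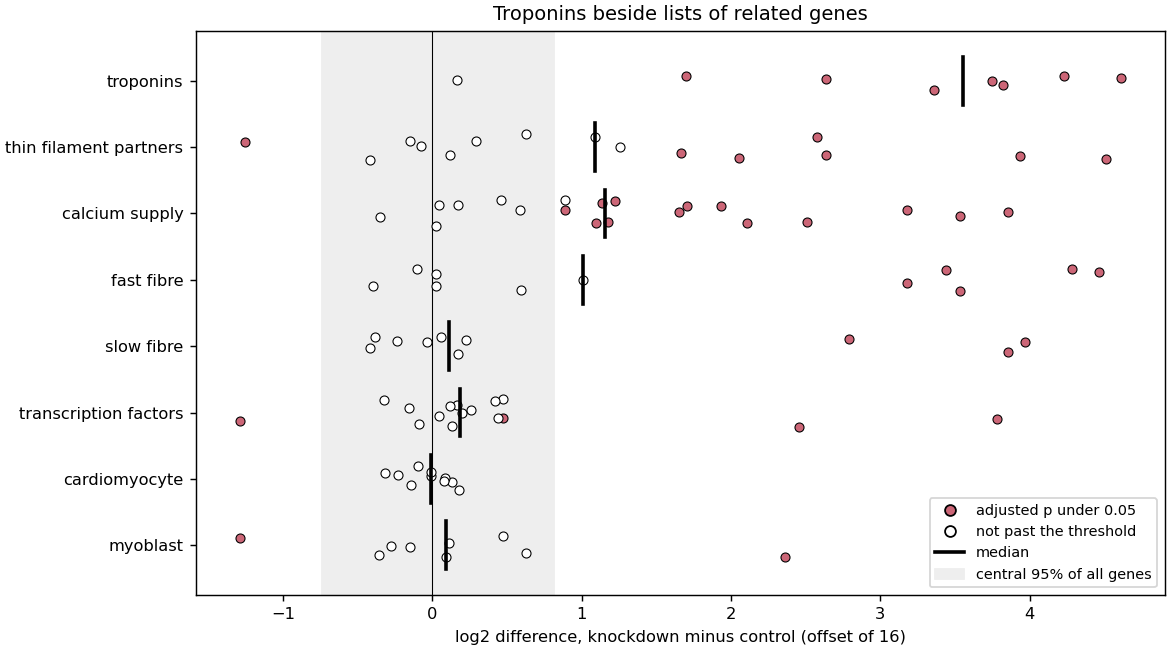
Log2 difference of each gene, given by its representing probe set, for the 8 troponin genes and 7 lists of related or marker genes, filled where the limma adjusted p was under 0.05, with a black bar for each list's median and a grey band for the central 95% of all genes. The troponin median is 3.56, those of thin filament partners, calcium supply and fast fibre genes are 1.09, 1.16 and 1.01, and those of the other 4 lists lie between -0.0069 and 0.18.

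Genes with the pattern most like each troponin were sought among 9013 genes with a mean of at least 32 in the control, the knockdown or both. Tnnc2, Tnni2 and Tnnt3, and several genes named here such as Casq2, passed this filter only through the knockdown. Likeness was the Euclidean distance between log2 values centred on their mean, over the 6 arrays, so it weighs both the size of the group difference and the spread between arrays. Nearness thus in large part restates a rise of similar size and is no separate support for it. For the 7 troponin genes bright enough, the 3 nearest genes each made 17 distinct genes. The nearest to Tnnc2 were the myosin light chain genes Mylpf and Myl4 and skeletal actin Acta1, at distances of 0.49, 0.52 and 0.55. Nearest to Tnni2 were Myl4, Casq2 and Acta1 (0.43, 0.49 and 0.72), and to Tnnc1 Casq2, the myoglobin gene Mb and Srl, which encodes sarcalumenin of the calcium store (0.46, 0.47 and 0.68).

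Among the troponin T genes, Tnnt2 lay closest to Casq1, Srl and Atp2a1 (0.48, 0.49 and 0.50), and Tnnt3 to Myh7, the M-band gene Myom2 and the myosin-binding gene Mybph (0.51, 0.54 and 0.55). Tnnt1 had no gene within 0.8, its nearest being Ankrd1, Actg2 and Tent5a (0.83, 0.84 and 0.88). The smaller change of Tnni1 was nearest to those of Cd36, a fatty acid transporter, Hspb3, a small heat shock protein of muscle, and Slc12a2, an ion cotransporter (0.32, 0.36 and 0.41). Cd36 and Hspb3 start from means of 1.29 and 1.59 in the control, where the offset compresses a larger rise, so their likeness to Tnni1 holds for the transformed scale. Control means of Casq2, Casq1, Atp2a1, Myh7, Myom2, Mybph and Tent5a were also below 16, from 5.52 to 13.9. The same limit applies to their likenesses. All of these distances are descriptions over the same 6 arrays.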

How the data were processed

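RNA was isolated with Trizol and 8 µg of total RNA went into each biotin labelling, per the labels' protocols. The authors deposited a linear intensity for every probe set of every array. The submitters' processing notes name GCOS and PLIER. Their settings, the background correction and any normalization between arrays are not given in the sources used here.

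Of 45101 probe sets, 64 Affymetrix controls were left out. Intensities became log2(intensity + 16) and were quantile normalized, since the interquartile range differed by 15.1% between arrays. The groups were compared with lmFit and eBayes (limma 3.58.1, R 4.3.3) over 34945 probe sets with 1 symbol, with Benjamini-Hochberg adjustment and a threshold of 0.05. The platform annotation gave several symbols for 932 probe sets and none for 9160. Means ± SD are of deposited intensities. Gene lists use the probe set of highest mean per gene. The test was tried on simulated data.

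The members, lists and tests were chosen with earlier results of these data known. All troponin probe sets are named, then up to 4 called members of each list with the largest difference, or 2 of the highest mean where none was called, and the 3 genes of most like pattern. Some genes outside this rule, such as Des, Myod1 and Pax7, are named as well. Promoters were read from RefSeq tables (GRCm38.p6), where all 8 troponin genes matched by symbol and 6 had a promoter. Alternatives changed the normalization, offset, filter, variance model, probe set choice, blocks and arrays. No pair of arrays held identical values, and the number of arrays limits the precision.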

Additional observations from a re-analysis of the deposited data

How the results depend on the processing

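For single troponin probe sets, 201 of 218 values under an alternative kept their direction and side of the threshold, 16 no longer passed, 1 newly passed and 0 reversed. Of 12 troponin probe sets, 10 were called, and 8 to 10 when 1 array was left out. Ordinary statistics without eBayes, which do not share variance between probe sets, called 4 of them, 3 thin filament, 6 calcium and 3 fast fibre genes, and 0 transcription factors. The 4 higher spike arrays alone called 7 troponin probe sets, 4 thin filament, 8 calcium and 3 fast fibre genes, and 0 transcription factors. Leaving out 1 array gave 7 to 12 calcium genes and 2 to 3 transcription factors. With 1 probe set or the mean per gene, 7 of 8 troponin genes were called. Of the paralogue differences only Tnnt3 minus Tnnt2 reversed, at -0.18 with an offset of 64. The cause was not tested.

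Over all probe sets, 631 were called higher and 452 lower. Ordinary statistics gave 119 and 51, the higher spike arrays 154 and 69, and leaving out 1 array 252 to 512 and 137 to 411. An offset of 64 gave 488 and 301.

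Arrays of the same number deviated from their group means with correlations of 0.37, 0.06 and -0.04, and 2 of 6 arrays correlated best with their own number. The main fit does not pair the numbers, since the labels name no pairing. Both arrays numbered 3 had the low Dap spike (39.9 and 38.8), and whether the numbers mark shared handling was not tested. A fit with the spike level as a block called 10 of 12 troponin probe sets. A fit with the replicate block called 8 of 12 troponin probe sets, with an adjusted p of 0.0517 for Tnni1 and 0.0566 for 1440424_at of Tnnt2, and 353 probe sets higher and 237 lower in all.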
